A study of Danio rerio with 9 samples.

Results

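The 4 zebrafish embryos (Danio rerio) sorted as normal, that is, without coloboma, are described here as a baseline of gene expression in the whole embryo at about 25 hours post fertilization. They are the embryos titled normal, with the numbers 3, 4, 6 and 7, and make up 4 of the 9 embryos in the series. All came from natural matings of fish that were both zic2aGBT133/+; zic2bUW1127/+, that is, with 1 altered copy each of zic2a and zic2b, genes for zinc-finger proteins that act in the patterning of brain and eye. They grew in embryo medium at 29 °C, and received no treatment. Coloboma is a gap left where the fissure of the optic cup has not closed. The labels tag each of the normal embryos WT and do not explain the tag. The genotype of each embryo is not given in the sources used here, so that carriers of either allele may be among them. RNA was taken from each single embryo, and 1 embryo is 1 library and 1 replicate. The remaining embryos of the series enter no comparison.

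Zebrafish embryos of this age have segmented muscle that contracts, a beating heart and circulating red cells, and they are still inside the chorion and fed by the yolk. The yolk syncytial layer, a cell layer between yolk and embryo, packs yolk lipid into lipoproteins, and the hatching gland stores the proteases that will open the chorion. The ancestor of the teleosts, the fishes that include zebrafish, duplicated its genome, so that many genes exist as a pair of copies named a and b, one or both of which may have kept the older gene's expression.

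The deposited tables give an estimated read count and a TPM value (a share of transcripts that takes gene length into account) for 22337 genes in each embryo. Total counts were 43836043, 40951722, 54681474 and 45553619 in embryos 3, 4, 6 and 7. The table lists only genes with at least 10 counts over the whole series, so a share of genes detected is a share of this list. Of these genes, 24 had 0 counts in all 4 embryos, which allows a level of up to 0.0549 CPM (counts scaled to library size) in the deepest and 0.0733 CPM in the shallowest library, for counting error only. Levels below are in TPM with the SD over 4 embryos. Counts of genes highest or lowest in an embryo and the spread of single genes are in TMM-scaled CPM, because TPM values are shares of a whole: the median gene stood at -0.10, -0.07, 0.10 and 0.09 on the log2 scale in embryos 3, 4, 6 and 7 by TPM, and within 0.02 of its mean by TMM-scaled CPM. A TPM difference between these embryos includes that shift.

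The targeted genes were both expressed in every normal embryo. zic2a had 20.7, 20.1, 28.0 and 23.1 TPM in embryos 3, 4, 6 and 7, and zic2b had 28.7, 31.0, 40.0 and 33.7 TPM. zic2b was the higher of the pair in each of the 4 embryos, and both genes were highest in embryo 6 on this scale. No embryo lacked the transcript of either gene. These levels do not give the genotype of an embryo, and carriers cannot be told from them.

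Most listed genes were expressed at a low level, and a small set made up much of the RNA. A mean of at least 1 TPM was reached by 18239 genes (81.7%), at least 10 TPM by 9087, at least 100 TPM by 1154 and at least 1000 TPM by 174. The median gene stood at 6.68 TPM. Together, 192 genes held 50% of all TPM and 5227 held 90%. The 20 genes with the highest mean TPM took 11.7%, 12.3%, 11.3% and 12.2% of TPM in the single embryos, in the order used above. The mean was 11.9% ± 0.488 (SD, n = 4). The same 20 genes were taken in every embryo, so genes that ranked higher in a single embryo only were not counted.

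Keratins of the skin headed the list. krt4, a type of keratin found in surface epithelium, had 10695, 11346, 9612 and 11864 TPM in embryos 3, 4, 6 and 7, a mean of 10879 ± 971 TPM. The keratin genes cyt1 and cyt1l averaged 8385 ± 722 TPM and 6370.0 ± 521 TPM. All 3 keratin genes were lowest in embryo 6. The other genes of the first 8 were mt-co1, mt-co2 and mt-co3, which encode subunits of cytochrome c oxidase, mt-atp6, a subunit of the mitochondrial ATP synthase, and eef1a1l1, the translation elongation factor that brings charged tRNA to the ribosome. eef1a1l1 stood at 9471, 8859, 8501 and 7325 TPM, highest in embryo 3 and lowest in embryo 7. By contrast, mt-co1 stood at 7986, 8346, 8896 and 10167 TPM, in the opposite order. Both orders are by TPM, which includes the shift between embryos given above. Behind them came the hatching gland protease gene ctslb, the lipoprotein gene apoa2, the muscle genes actc1b and mylpfa, and an embryonic globin gene, besides 6 ribosomal protein genes among the first 25.

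**Figure D1:**
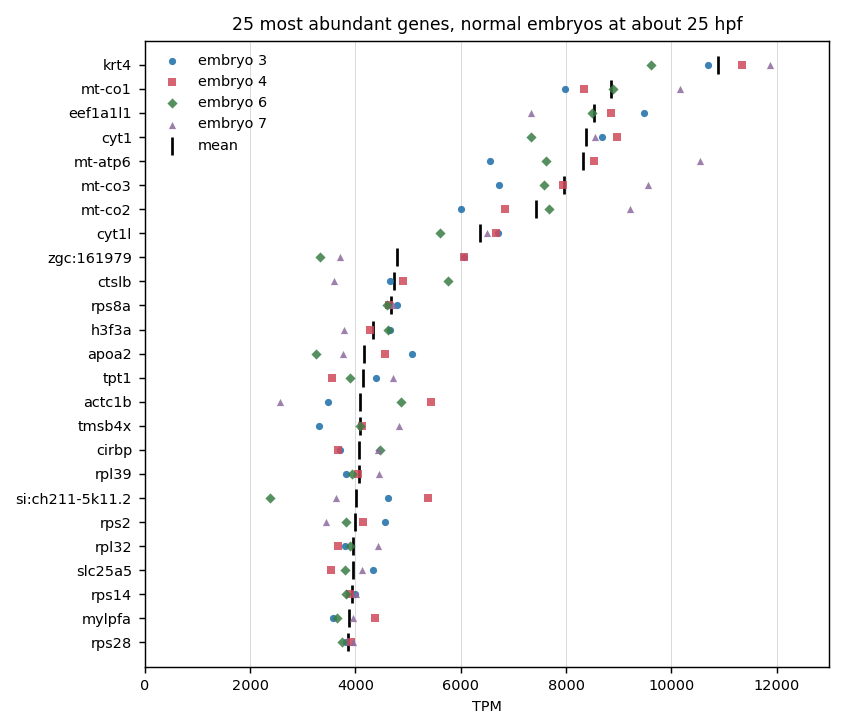
TPM (x axis, linear) of the 25 genes with the highest mean, 1 row a gene, with a point for each normal embryo and a bar at the mean of the 4. The ribosomal protein genes rps8a, rps14 and rps28 lie close together, while actc1b, the globin gene si:ch211-5k11.2 and zgc:161979 spread widely.

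The gene zgc:161979, which the RefSeq gene table lists as afp4, had rank 9, at 6065, 6070.4, 3325 and 3716 TPM. Its level was higher in embryos 3 and 4 than in embryos 6 and 7. The histone H3.3 gene h3f3a averaged 4329.6 ± 404 TPM, the actin-binding peptide gene tmsb4x 4086 ± 625 TPM, the RNA-binding protein gene cirbp 4063 ± 437 TPM, the ADP/ATP carrier gene slc25a5 3946 ± 346 TPM and tpt1 4141 ± 514 TPM. Each of these 5 genes differed between its lowest and highest embryo by less than 1.5-fold.

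Genes of the ribosome took a large part of the transcriptome. The 79 genes with symbols of cytosolic ribosomal proteins held 22.1%, 20.9%, 19.8% and 19.6% of TPM in embryos 3, 4, 6 and 7 (mean 20.6% ± 1.16, SD, n = 4). Taken by symbol, they include rps19bp1 (43.6 TPM), named as a binding protein of a ribosomal protein, and rpl7l1 (145 TPM), named as a like-gene. The median level of the 79 was 2823 TPM, 74 of them exceeded 1000 TPM, and 2, rps19bp1 and rps8b, lay under 100 TPM. The highest, rps8a, had 4783, 4638, 4595 and 4706 TPM, and its near namesake rps8b was the lowest of all at 1.83 TPM. The 13 protein genes of the mitochondrial genome held 4.01%, 4.61%, 4.81% and 5.76% (mean 4.80% ± 0.726, SD, n = 4), lowest in embryo 3 and highest in embryo 7. By TPM, ribosomal and mitochondrial shares thus stood in opposite order over the 4 embryos. The order of these shares was not tested by TMM-scaled CPM.

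Genes on every tissue list were detected, though not in equal share. Of 473 genes on 26 lists of tissue markers, 448 (94.7%) had a mean of at least 1 TPM, against 81.7% of all listed genes. On 13 of the 26 lists every matched gene reached that level, and the median member stood at 16.8 TPM. Lists for pituitary and thyroid (7 of 11 genes, 63.6%) and the germline (4 of 11, 36.4%) lay below the share of all listed genes. The summed level of a list differed between tissues by more than 1000-fold, from skeletal muscle to the germline. In a whole embryo, fewer cells of a type and less RNA per cell cannot be told apart.

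**Figure D2:**
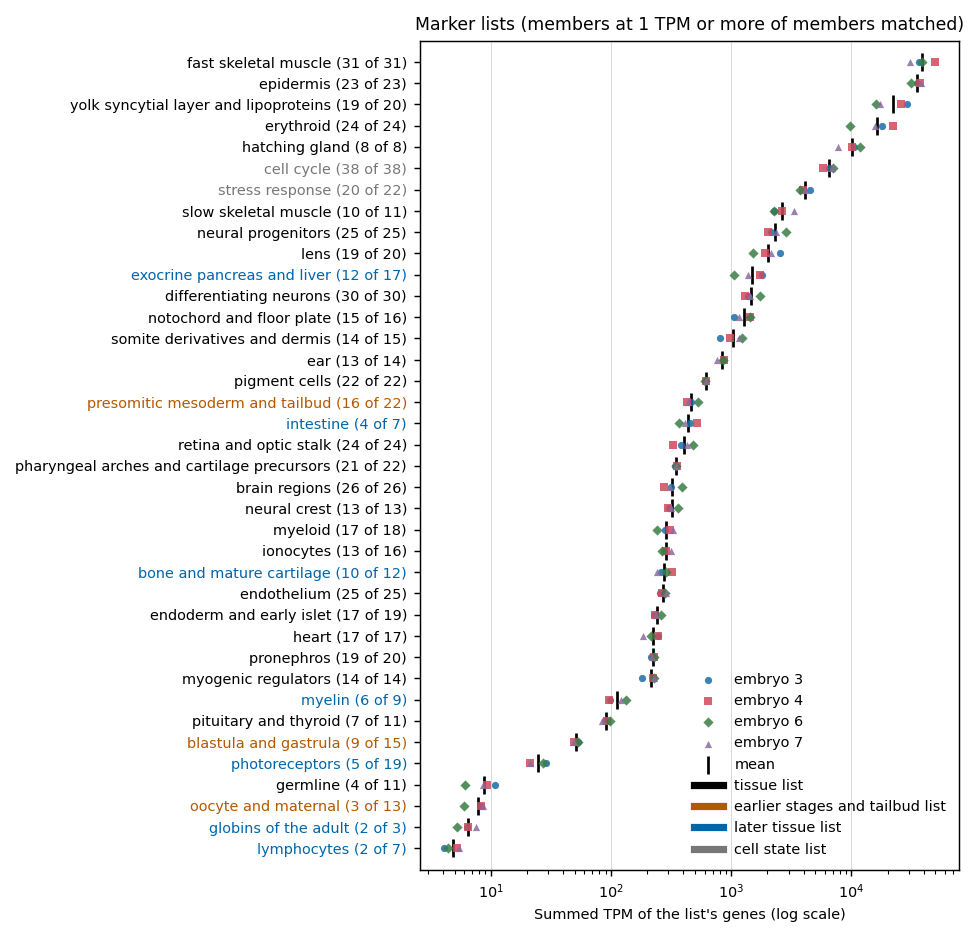
Summed TPM of each marker list (x axis, log scale) in the 4 normal embryos, ordered by the mean, which is drawn as a bar. The labels give how many of the matched members averaged 1 TPM or more, and their colour gives the class of list. Muscle, epidermis, yolk syncytial layer and red cells lead, and lists for eggs, germ cells, lymphocytes and adult globins lie at the bottom.

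Fast skeletal muscle had the largest mean sum of these lists, although in embryo 7 the epidermis list summed to more. The 31 fast muscle genes summed to 36804, 49431, 38715 and 30689.5 TPM in embryos 3, 4, 6 and 7, 3.92% of TPM on average. The sarcomeric actin gene actc1b had 3474, 5431, 4867 and 2572 TPM, the fast myosin light chain gene mylpfa 3565, 4377, 3642 and 3957 TPM, and the creatine kinase gene ckmb 2776, 3697, 2519 and 1678 TPM. These 3 genes, like the list, were highest in embryo 4, and actc1b and ckmb were lowest in embryo 7. Slow muscle genes summed to 2276, 2661, 2277 and 3297 TPM, with myl10, a myosin light chain gene, at 1210.1, 1459, 1241 and 1823 TPM and the slow myosin heavy chain gene smyhc1 at 409.5, 448, 384 and 588 TPM. Here embryo 7 was the highest, in contrast to the fast muscle genes. Single genes of myosin and actin families share reads with near-identical copies, so that their own values are less certain than the sum. Regulators of the muscle lineage were far lower, a sum of 215 ± 22.3 TPM over 14 genes, led by mef2ca at 50.5 ± 12.7 TPM.

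Epidermis followed with 23 genes that summed to 34821, 37029.5, 31534 and 37706 TPM in embryos 3, 4, 6 and 7, 3.56% of TPM on average, with the skin gene icn at 3094 ± 427 TPM after the keratins. Of 16 genes for ionocytes, the ion-transporting cells of the skin, 13 (81.25%) reached 1 TPM, near the 81.7% of all listed genes. Among the 13 were the sodium pump gene atp1a1a.2 at 75.1 ± 10.9 TPM and the proton pump gene atp6v1aa at 60.9 ± 0.872 TPM. The hatching gland list held 8 genes that summed to 10518, 10149.8, 11742 and 7791 TPM. Its cathepsin gene ctslb stood at 4654, 4896, 5753 and 3591 TPM, the hatching enzyme gene he1a at 4156, 3780.1, 4248 and 2859 TPM, and he1b at 1297, 1035, 1309 and 869 TPM. All 3 were lowest in embryo 7 and highest in embryo 6 by TPM.

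Yolk-associated genes were abundant and uneven. The 20 genes of the yolk syncytial layer and lipoproteins summed to 29115, 25912, 15865 and 17118 TPM in embryos 3, 4, 6 and 7, 2.22% of TPM on average. The apolipoprotein gene apoa1a had 5835, 4563, 2646 and 2014 TPM, apoa1b 5867, 4737, 2404 and 1709 TPM and apoa2 5081, 4564, 3244 and 3755 TPM. Each of the 3 was highest in embryo 3, then in embryo 4, and the list sum was higher in these embryos than in embryos 6 and 7. Genes that later mark the liver were expressed too: the iron-carrier gene tfa (transferrin) had 1128, 1067, 665 and 883 TPM and the fibrinogen gene fga 120.5, 117, 64.1 and 83.5 TPM. Both were highest in embryo 3 and lowest in embryo 6, as were apoa2 and the sum of the yolk list, whereas apoa1a and apoa1b were lowest in embryo 7. The gene tfa is itself a member of the yolk list.

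Embryonic globin genes led the red cell list. The 24 erythroid genes summed to 18119.5, 22075, 9643 and 15743 TPM, 1.65% of TPM on average. The row si:ch211-5k11.2, a symbol that the RefSeq gene table gives as a synonym of the embryonic globin genes hbae1.2 and hbae1.3, had 4622, 5373, 2387 and 3639 TPM. The embryonic globin genes hbae3 and hbbe1.1 had 2836, 3696, 1422 and 2337 TPM and 2074, 2532, 1116 and 1765 TPM. Embryo 4 was the highest and embryo 6 the lowest for all 3, with more than 2-fold between them. On the list drawn up for adult globins, by contrast, hbz was the highest at 4.69 ± 1.06 TPM, and the RefSeq table lists that symbol under hbae5, an embryonic gene. The adult alpha globin gene hbaa1 stood at 0.682 ± 0.286 TPM.

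Other cells of the blood and vessels were detected at lower levels. The neutrophil granule genes lyz and npsn had 117, 141, 104 and 153 TPM and 25.3, 30.5, 20.7 and 28.7 TPM, and the macrophage gene mfap4 had 33.4, 28.3, 27.4 and 42.3 TPM. All 3 were lowest in embryo 6, but cebpb, the next gene of the myeloid list, was lowest in embryo 7, at 23.6, 23.6, 15.5 and 14.1 TPM. By TPM, 7 of 12 myeloid genes with at least 5 mean CPM were lowest in embryo 6 and 3 in embryo 7. The shares over all 13389 such genes were 10.1% and 16.6%. The endothelial list summed to 273 ± 14.1 TPM over 25 genes, with robo4, a guidance receptor of vessels, at 29.1 ± 5.74 TPM and the transcription factor gene fli1a at 23.3 ± 2.47 TPM. Heart genes summed to 223 ± 30.1 TPM over 17 genes. The cardiac myosin light chain gene cmlc1 had 50.4, 48.9, 35.2 and 29.7 TPM, myl7 averaged 39.7 ± 5.66 TPM, and the troponin gene tnnt2a 25.6 ± 3.37 TPM. The heart list summed to less than 0.01 of the fast muscle list.

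In the nervous system, progenitor genes summed to more than neuronal ones. The 25 neural progenitor genes came to 2139.8, 2018, 2835 and 2339 TPM, led by fabp7a, a fatty acid binding protein of radial glia, at 408, 432, 753 and 633 TPM. The progenitor transcription factor genes sox19a and sox3 averaged 169 ± 14.1 TPM and 149 ± 20.2 TPM. The 30 genes of differentiating neurons came to 1378, 1297, 1739.8 and 1426 TPM, with elavl3, an RNA-binding protein gene of early neurons, at 203, 167, 262 and 178 TPM and stmn1b at 60.3, 58.3, 98.7 and 84.0 TPM. Embryo 6 was the highest for both lists. Markers of brain regions were single transcription factor genes at low levels, such as otpb at 33.7 ± 5.94 TPM, otx2 of the forebrain and midbrain at 22.4 ± 6.53 TPM and nkx6.1 at 25.5 ± 5.36 TPM.

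The eye gave 2 unlike patterns. Genes of retina and optic stalk summed to 382, 329, 479 and 426 TPM in embryos 3, 4, 6 and 7, with the eye field factor gene pax6a at 59.8, 48.1, 79.5 and 77.4 TPM and mab21l1, a gene of the developing eye, at 42.6, 41.2, 57.8 and 45.4 TPM. By TPM, both were lowest in embryo 4 and highest in embryo 6. On that scale embryo 6 was the highest for 39.6% and embryo 4 the lowest for 32.2% of all 13389 genes. The next gene of the list, aldh1a2, had 32.8, 35.1, 36.5 and 39.8 TPM, lowest in embryo 3 and highest in embryo 7. Lens genes summed to 2554, 1899, 1531 and 2156 TPM, with the crystallin genes crybb1 at 583, 356, 319 and 363 TPM and cryba4 at 363, 306, 204 and 272 TPM, highest in embryo 3 and lowest in embryo 6. Genes of photoreceptors, which form later, were near the bottom: 5 of 19 (26.3%) reached 1 TPM, against 81.7% of all listed genes. The opsin gene opn1sw2 had 0.922 ± 0.151 TPM.

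The sum of the pigment cell genes was even between embryos, though not every member was. The 22 genes of this list summed to 605, 617, 607 and 620.5 TPM, an SD of 7.67 TPM around 612 TPM. gch2, which encodes the first enzyme of pteridine synthesis, had 212, 231, 203 and 206 TPM, and the melanin synthesis genes tyrp1b and dct had 74.7, 71.0, 73.4 and 74.0 TPM and 61.2, 53.1, 75.1 and 73.7 TPM. Of the lower members, tyrp1a at 11.2, 13.0, 9.99 and 5.89 TPM and the melanosome gene pmelb at 18.2, 13.5, 24.9 and 29.5 TPM differed by more than 2-fold between their lowest and highest embryo. The list of crest genes summed to 319 ± 29.5 TPM, including tfap2a at 55.6 ± 6.2 TPM and sox10, the factor of migrating crest, at 4.99 ± 1.24 TPM. Genes of the pharyngeal arches and cartilage precursors summed to 348 ± 6.12 TPM, led by prrx1a at 44.4 ± 2.81 TPM and dlx5a at 35.5 ± 1.75 TPM.

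Of the remaining mesoderm and endoderm, the notochord and floor plate list summed to 1268 ± 193 TPM, with the sheath collagen gene col2a1a at 217, 353, 441 and 262 TPM. The list of somite derivatives and dermis came to 1035 ± 188 TPM, led by col1a1a at 353, 425, 522 and 585 TPM, lowest in embryo 3. For the pronephros, the first kidney, 19 of 20 genes (95%) reached 1 TPM, against 81.7% of all listed genes, among them cdh17 at 39.0 ± 5.4 TPM. Of the islet hormone genes, insulin (ins) had 23.9, 28.3, 27.5 and 28.5 TPM and somatostatin (sst2) had 15.6, 27.8, 25.7 and 33.8 TPM. On the ear list, sparc at 659.8 ± 21.7 TPM held most of the sum, a gene of connective tissue matrix that is not particular to the ear, and the otolith matrix gene stm had 35.0, 40.4, 40.8 and 15.5 TPM. stm in embryo 7 was under 50% of its level in each of the other embryos.

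Lists for earlier stages and for later tissues had, as classes, fewer members detected than the 81.7% of all listed genes. Of 50 matched genes on lists for eggs, gastrulae and the tailbud, 28 (56%) reached 1 TPM, and of 74 for later tissues, 41 (55.4%). Single lists differed, from 3 of 13 egg genes (23.1%) to 16 of 22 tailbud genes (72.7%). Bone and cartilage, at 10 of 12 genes (83.3%), was not below 81.7%. These shares leave out entries that matched no listed gene. Matched were 13 of 24 egg, 22 of 28 tailbud, 7 of 14 lymphocyte and 12 of 16 bone and cartilage entries. Whether the unmatched ones are genes under 10 counts or genes under another name was not tested. From eggs, the zona pellucida gene zp2.1 had 1.41 ± 0.348 TPM and zar1 0.828 ± 0.32 TPM. From the blastula, nanog, a pluripotency factor gene, had 0.31 ± 0.152 TPM and pou5f3 1.11 ± 0.151 TPM. The somite clock genes her1 and her7 had 0.0825 ± 0.0695 TPM and 0.24 ± 0.0898 TPM, and the presomitic gene tbx16 had 0.425 ± 0.105 TPM. The highest genes on the tailbud list, her12 at 85.7 ± 18.2 TPM, hes6 at 82.0 ± 18.1 TPM, her15.1 at 79.3 ± 20.5 TPM and dld at 74.4 ± 7.67 TPM, are Notch pathway genes that neural tissue expresses as well. ntla, the brachyury gene of notochord and tailbud, had 15.5 ± 2.56 TPM and the retinoic acid degrading enzyme gene cyp26a1 had 19.5 ± 2.6 TPM.

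Several genes on the lists for later tissues were abundant. Which tissue expressed them at this age was not tested. fabp2, the fatty acid binding protein of intestine, averaged 329 ± 55.5 TPM. The myelin list was led by plp1a at 72.5 ± 16.8 TPM and mbpb at 25.7 ± 2.66 TPM, while myrf, a regulator of myelin-forming cells, had 2.83 ± 0.198 TPM. On the bone and cartilage list, lect1 and epyc had 104 ± 20.8 TPM and 94.8 ± 12.6 TPM. The lymphocyte recombination genes rag1 and rag2 had 0.417 ± 0.196 TPM and 1.0 ± 0.189 TPM. On the germline list, 4 of 11 genes (36.4%) reached 1 TPM, against 81.7% of all listed genes, and these 4 did not share an order. vasa, a helicase gene of germ cells, had 2.72, 2.29, 0.53 and 2.26 TPM. nanos3 had 2.05, 1.15, 0.23 and 0.88 TPM, with 9 counts in embryo 6. Both were lowest in embryo 6. By TPM, gra at 2.01, 2.18, 2.23 and 1.98 TPM and piwil1 at 1.42, 1.46, 1.79 and 1.3 TPM were highest in embryo 6. On that scale embryo 6 was the highest for 39.6% of the 13389 genes with at least 5 mean CPM. Their counts were 68, 68, 87 and 66 for gra and 66, 56, 77 and 61 for piwil1, and embryo 6 is the deepest library.

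Genes of cell division and of the stress response were expressed as well. The 38 cell cycle genes summed to 6454, 5793, 7040.2 and 6870.3 TPM, with the replication clamp gene pcna at 1145, 982, 1278 and 1257 TPM and the ribonucleotide reductase gene rrm2 at 809, 729.6, 951 and 1003 TPM. On the stress list, the constitutive chaperone gene hspa8 had 3162, 2113, 2372 and 2617 TPM, and the cyclin G gene ccng1 had 456, 888, 539 and 633 TPM. hspa8 was highest in embryo 3 and ccng1 in embryo 4.

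All 48 hox genes listed, which encode the transcription factors of position along the body axis, reached 1 TPM, against 81.7% of all listed genes. They summed to 656, 728, 764 and 786 TPM in embryos 3, 4, 6 and 7. Paralog group 3 held 29.2% of the hox sum and group 9 held 12.8%. The highest single genes were hoxa3a at 79.4 ± 8.01 TPM, hoxc3a at 55.7 ± 9.91 TPM and hoxb3a at 53.8 ± 8.92 TPM. Among the 7 clusters, ba held 26.6%, ca 24.6%, aa 17.2%, da 11.9%, bb 10.1%, ab 6.65% and cb 2.97%. Groups 9 to 13, of the trunk and tail, were each lowest in embryo 3 and highest in embryo 7 by TPM: group 10 had 35.5, 43.5, 42.8 and 63.4 TPM. On this scale embryo 3 was the lowest for 41.1% and embryo 7 the highest for 35.6% of the 13389 genes with at least 5 mean CPM. Group 4, of the hindbrain, was highest in embryo 6 and lowest in embryo 7, at 56.1, 49.1, 63.2 and 37.4 TPM.

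Within several tissues, 1 embryo was the highest for most genes. Over all 13389 genes with at least 5 CPM, the highest embryo by TMM-scaled CPM was embryo 3 for 24.0%, embryo 4 for 22.6%, embryo 6 for 27.3% and embryo 7 for 26.0%, and the lowest was embryo 3 for 27.0%, embryo 4 for 25.1%, embryo 6 for 21.3% and embryo 7 for 26.7%. Of 31 fast muscle genes, 27 were highest in embryo 4 and 19 lowest in embryo 7. Of 21 erythroid genes, 20 were highest in embryo 4 and 20 lowest in embryo 6. Of 10 slow muscle genes, 8 were highest in embryo 7. Genes on a list share their cells, so these counts describe the list and carry no test.

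Lens and yolk lists had their high and low ends in the same embryos. Of 15 lens genes, 10 were highest in embryo 3 and 14 lowest in embryo 6. Of 19 genes of the yolk syncytial layer and lipoproteins, 14 were highest in embryo 3 and 14 lowest in embryo 6, and of 8 genes for exocrine pancreas and liver, 7 were highest in embryo 3 and 8 lowest in embryo 6. Embryo 6 was instead the highest for 23 of 30 neuronal genes, 16 of 25 neural progenitor genes, 13 of 23 brain region genes and 11 of 19 genes of retina and optic stalk, and embryo 4 was the lowest for 12 of those 19. Embryo 7 was the lowest for 8 of 10 ear genes. With TPM in place of CPM these counts kept their embryo and stayed within 1.5 times for all lists named up to here in this paragraph and the one before. The share over all genes moved. By TPM the highest embryo was embryo 3 for 11.2%, embryo 4 for 13.6%, embryo 6 for 39.6% and embryo 7 for 35.6% of the 13389 genes, and the lowest was embryo 3 for 41.1%, embryo 4 for 32.2%, embryo 6 for 10.1% and embryo 7 for 16.6%. For the hatching gland the embryo depends on the scale: 4 of 8 genes were highest in embryo 3 and 4 in embryo 4 by CPM, while by TPM 0 were highest in embryo 3, 1 in embryo 4, 4 in embryo 6 and 3 in embryo 7. For epidermis 16 of 23 were lowest in embryo 6 by CPM. By TPM 12 were lowest in embryo 3, 2 in embryo 4, 9 in embryo 6 and 0 in embryo 7.

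**Figure D3:**
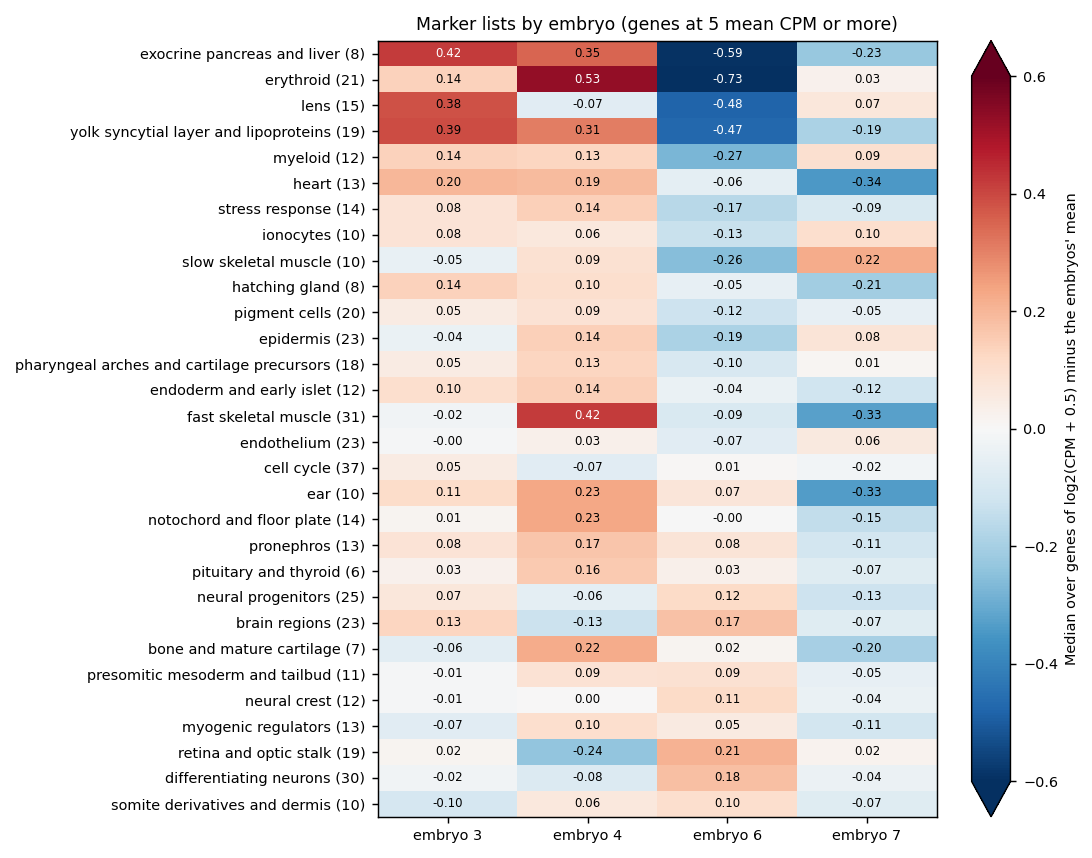
Median over the genes of each list of log2(CPM + 0.5) minus the mean of the 4 embryos, in colour and in digits, for lists with at least 6 genes at 5 mean CPM (the number of genes is in brackets). Embryo 6 is low in red cell, lens, yolk and liver genes and embryo 4 is high in fast muscle and red cell genes.

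The copies of a and b pairs were often unequal. By name 1977 pairs were found, of which 1901 had a mean of at least 1 TPM in either copy and were tested. In 991 of them (52.1%) 1 copy exceeded the other by more than 2-fold (limma treat test on log2(TPM + 0.1), adjusted p under 0.05 by Benjamini-Hochberg over all pairs): the a copy was higher in 553 (29.1%) and the b copy in 438 (23.0%). The median size of the log2 ratio was 1.37. In 333 pairs (17.5%) 1 copy held at least 90% of the sum, and 273 (14.4%) had a ratio within 1.25-fold. The same copy was higher in all 4 embryos for 1687 pairs (88.7%), and the median SD of the log2 ratio was 0.231, below the 1.37 of the median size of the ratio. Names that differ in a final a or b also include genes named after separate human genes, such as actl6a and actl6b.

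Of 61 tested pairs chosen for their part in development and tissue structure, 33 (54.1%) were called, near the 52.1% of all pairs: 23 with a higher a copy and 10 with a higher b copy. The median size of their log2 ratio was 1.48, and 56 had the same higher copy in all 4 embryos. The remaining 28 pairs did not pass, which does not show that their copies are equal.

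Transcription factor pairs ranged from 1 dominant copy to a near tie. gata1a, the erythroid factor, had 15.2, 16.1, 19.3 and 18.9 TPM in embryos 3, 4, 6 and 7, against 0.36, 0.27, 0.47 and 0.59 TPM for gata1b, a log2 ratio of 5.09 ± 0.13 (SE) with an adjusted p of 5.32e-07 by limma treat. In every embryo gata1a was more than 20 times higher. The a copies of sox19, sox4, prox1, dlx2, pax2, pax6, snai1, mef2c, fli1, isl2 and nr2f1 were also called higher, with log2 ratios of 1.37 (nr2f1a over nr2f1b) to 2.99 (prox1a over prox1b). pax6a, the copy that led in the retina list, had 59.8, 48.1, 79.5 and 77.4 TPM and pax6b 17.7, 15.6, 16.6 and 17.4 TPM, and the ratio was larger in embryos 6 and 7 than in embryos 3 and 4. six6b, of the optic vesicle, was the higher copy of its pair, 2.77 ± 0.763 TPM for six6a and 13.9 ± 2.34 TPM for six6b. Among pairs that were not called were ascl1a and ascl1b, six3a and six3b, otx1a and otx1b, foxc1a and foxc1b, and twist1a and twist1b.

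zic2a and zic2b belonged to this last set. Their means were 23.0 ± 3.63 TPM for zic2a and 33.4 ± 4.91 TPM for zic2b, a log2 ratio of -0.54 ± 0.08 (SE) that was -0.47, -0.63, -0.51 and -0.54 in embryos 3, 4, 6 and 7 and did not exceed 2-fold (adjusted p of 1 by limma treat). The ratio was among the steadier ones, below the median SD of all pairs, with zic2b higher throughout. sox9a and sox9b differed between embryos: the log2 ratio was -0.50, 0.03, -1.09 and -1.44, so that sox9b ranged from level with sox9a in embryo 4 to the far higher copy in embryo 7.

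The a copy was the higher one for 3 signalling genes. shha, the main sonic hedgehog copy of notochord and floor plate, averaged 23.5 ± 2.15 TPM for shha and 6.38 ± 0.426 TPM for shhb, a log2 ratio of 1.86 ± 0.09 (SE). fgf8a was likewise called, with 9.15 ± 0.919 TPM for fgf8a and 1.5 ± 0.243 TPM for fgf8b. notch1a was called by TPM, with 126 ± 43.3 TPM for notch1a and 25.4 ± 7.06 TPM for notch1b, but not by CPM, which takes no account of length (log2 ratio 0.52). The ligand pair jag1a and jag1b was not called, at 7.71 ± 1.64 TPM for jag1a and 14.7 ± 1.38 TPM for jag1b.

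Structural and metabolic pairs went both ways. The lens crystallin gene cryba1a had 7.99, 5.49, 4.76 and 7.12 TPM in embryos 3, 4, 6 and 7, against 376, 264, 233 and 373 TPM for cryba1b. This was the largest imbalance of the 61 pairs, at a log2 ratio of -5.59 ± 0.08 (SE). In the neighbouring family, cryba2a and cryba2b were not called, at 142 ± 34.2 TPM for cryba2a and 182 ± 40.0 TPM for cryba2b. The glycolytic genes split: eno1a held 97.9% of its pair, and tpi1a 4.95%, while the means for pkma and pkmb, which were not called, were 35.8 ± 2.86 TPM for pkma and 44.5 ± 10.4 TPM for pkmb. In muscle, mylpfa held 79.3% of its pair, acta1a 17.9% and tnnt3a 58.0%, the last not called. apoa1a and apoa1b were level at 3765 ± 1755 TPM for apoa1a and 3679 ± 1951 TPM for apoa1b, although both varied several-fold between embryos. Of the melanin genes, pmela held 77.0% of its pair, and tyrp1a over tyrp1b had a log2 ratio of -2.92.

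**Figure D4:**
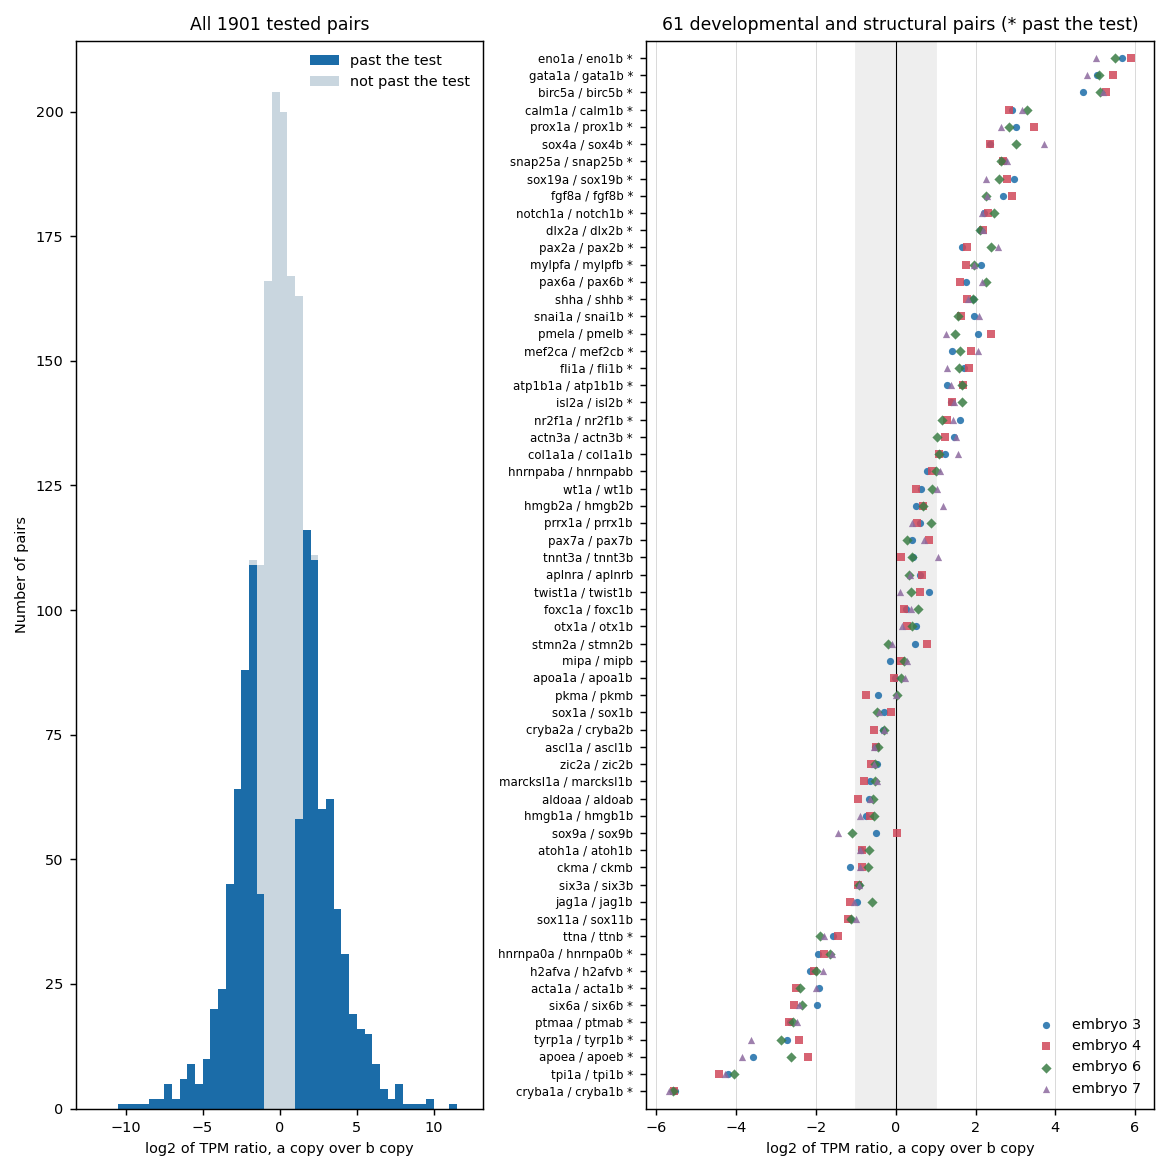
Left, number of pairs by log2 ratio of the a copy over the b copy (x axis, bins of 0.5) for all 1901 tested pairs, with those past the test dark. Right, the same ratio in each normal embryo for the 61 developmental and structural pairs, with the span of 2-fold shaded. Most rows keep to 1 side of 0 in all 4 embryos.

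Outside this set, the widest imbalances among pairs with a summed level of at least 20 TPM involved a copy near absence. On the a side, ctsba, a lysosomal protease gene, had 214 ± 38.9 TPM for ctsba and 0.122 ± 0.0665 TPM for ctsbb, ldhba, a lactate dehydrogenase gene, 404 ± 31.7 TPM for ldhba and 0.468 ± 0.111 TPM for ldhbb, and eif3ba, a translation initiation factor gene, 372 ± 29.6 TPM for eif3ba and 0.318 ± 0.119 TPM for eif3bb. rps8a exceeded rps8b by a log2 ratio of 11.25 ± 0.10 (SE). On the b side, the mitochondrial phosphate carrier pair slc25a3 stood at 0.305 ± 0.090 TPM for slc25a3a and 481 ± 67.8 TPM for slc25a3b, the fast myosin binding protein pair mybpc2 at 0.102 ± 0.00957 TPM for mybpc2a and 149.8 ± 58.3 TPM for mybpc2b and the scaffold pair akap12 at 0.275 ± 0.121 TPM for akap12a and 158 ± 16.2 TPM for akap12b. s100a10a, highest in embryo 4, had 0.26, 1.32, 0.16 and 0.19 TPM, against 374, 456, 419 and 564 TPM for s100a10b. Near-identical copies share reads, which the authors' estimator divides by a model, and the part of that division in these ratios was not tested.

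Embryo-to-embryo spread was modest for most genes. Over 13389 genes with at least 5 mean CPM, the coefficient of variation (SD over mean, 4 embryos) had a median of 0.110, with 5% of genes under 0.0353 and 5% over 0.299. It was under 0.1 for 5870 genes (43.8%), at least 0.3 for 658 (4.91%) and at least 0.5 for 75 (0.560%). The common biological coefficient of variation (BCV), which takes out counting error, was 0.176 by edgeR. It is 1 value fitted to all 20079 genes left after filtering, lower ones included. It is therefore not directly comparable with the median of 0.110. The median coefficient of variation was 0.133 for genes of 5 to 10 CPM, 0.0958 for 50 to 100 CPM and 0.139 above 500 CPM. The most abundant genes, among them those of muscle, blood and yolk, were thus no steadier than low ones.

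The most dispersed genes relative to the trend are given here for plain lower-case symbols, without clone names and the like. Among the genes left out, 6 were more dispersed than the first of the 20 taken and 22 more than the last. Of the 20, hspb9 and hspb11 encode small heat-shock proteins. hspb9, the first of them, had 68.5, 16.1, 8.16 and 4.87 CPM in embryos 3, 4, 6 and 7. hspb11 had 22.5, 4.36, 3.68 and 3.14 CPM and hsp70.3, which was chosen after its values were seen, 57.9, 17.5, 20.5 and 22.5 CPM. All 3 were highest in embryo 3 by more than 2.5-fold over the next embryo. The broad chaperone gene hspa8 was highest there too, as given above, but by less, and hspb1, another small heat-shock protein gene, was highest in embryo 4, at 142, 209, 121 and 129.8 TPM, so that these values describe single genes and not the family.

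In 9 of the 20 genes the values in embryos 3 and 4 both lay above those in embryos 6 and 7, an order that 23.6% of the 13389 genes had. The 20 were picked for their spread, and the count carries no test. hao1, a glycolate oxidase gene, had 133, 114, 43.2 and 44.3 CPM, and dmgdh, of choline breakdown, 146, 140.1, 57.2 and 44.9 CPM. f10, which encodes a clotting factor, had 37.5, 39.9, 10.8 and 11.7 CPM, and the cathepsin gene ctssb.1 172, 123, 57.1 and 56.4 CPM. The water channel gene aqp8b had the same order at 14.8, 13.9, 2.54 and 3.14 CPM. bhmt, the neighbour of dmgdh in the RefSeq gene table (assembly GRCz12tu) and an enzyme of the same pathway, had 2639, 2097, 845 and 747 CPM, and was chosen after its values were seen. The inflammatory regulator gene nfkbiz followed the same order at 18.9, 20.3, 4.41 and 2.8 CPM. These 7 genes are on none of the marker lists. The summed level of the yolk syncytial list was also highest in embryos 3 and 4, and its part in their values was not tested.

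Other dispersed genes had 1 or 2 embryos away from the rest. duox, an oxidase gene that produces hydrogen peroxide, had 6.03, 4.76, 34.6 and 3.56 CPM, high in embryo 6. rxfp2b, which encodes a relaxin receptor, had 0.570 CPM in embryo 3 and at least 10.4 CPM in each of the others, and kdelc2 had 2.11, 27.1, 16.1 and 13.3 CPM, both low in embryo 3. The caspase gene caspb was low in embryos 3 and 4, at 1.31, 1.33, 17.4 and 12.4 CPM. thy1, for a surface glycoprotein, was high in embryos 4 and 7, at 10.16, 38.7, 11.3 and 37.5 CPM. The nucleoside transporter gene slc29a2 had 34.4, 6.99, 25.0 and 25.9 CPM, low in embryo 4, and the integrin gene itga10 23.7, 25.8, 27.8 and 6.31 CPM, low in embryo 7.

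Muscle, lipoprotein and mitochondrial genes completed the dispersed set. atp2a1l, a relative of the calcium pump gene of fast muscle, had 23.4, 66.6, 27.9 and 9.01 CPM, highest in embryo 4 like the fast muscle list. The slow myosin gene smyhc3 had 8.03, 2.76, 1.48 and 9.28 CPM. It was highest in embryo 7 like the slow muscle list, of which it is a member, but nearly as high in embryo 3. apoea had 138, 307, 125 and 61.2 CPM and the complement gene c3c 13.6, 21.5, 2.95 and 14.9 CPM, both highest in embryo 4. mt-atp8 had 14.5, 33.9, 119 and 30.4 CPM, highest in embryo 6, while mt-atp6, whose reading frame overlaps it on the mitochondrial genome, was highest in embryo 7 by TPM. Reads from the overlap are divided by the estimator, and the value of mt-atp8 is uncertain for that reason.

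The 10 least dispersed genes, taken by the same rule for symbols, were low in level. pcmtl had 6.25, 6.16, 6.32 and 6.31 CPM in embryos 3, 4, 6 and 7 and rapgef5b 8.1, 8.09, 8.23 and 8.12 CPM. rasgrp3, the lowest of them relative to the trend, had 5.06, 4.99, 5.23 and 4.91 CPM. All 10, among them pitpnab, dusp12, tnk2b, f7i, phactr3b and traf3, had a coefficient of variation of 0.0331 or less. At their counts, such as 263, 246, 354 and 299 for pcmtl, counting error alone is larger than this spread. The edgeR gene-wise BCV of the 10 was 0.134 to 0.145. They were picked for low spread out of 10329 genes with plain symbols, so they cannot be called the steadiest genes of the embryo.

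**Figure D5:**
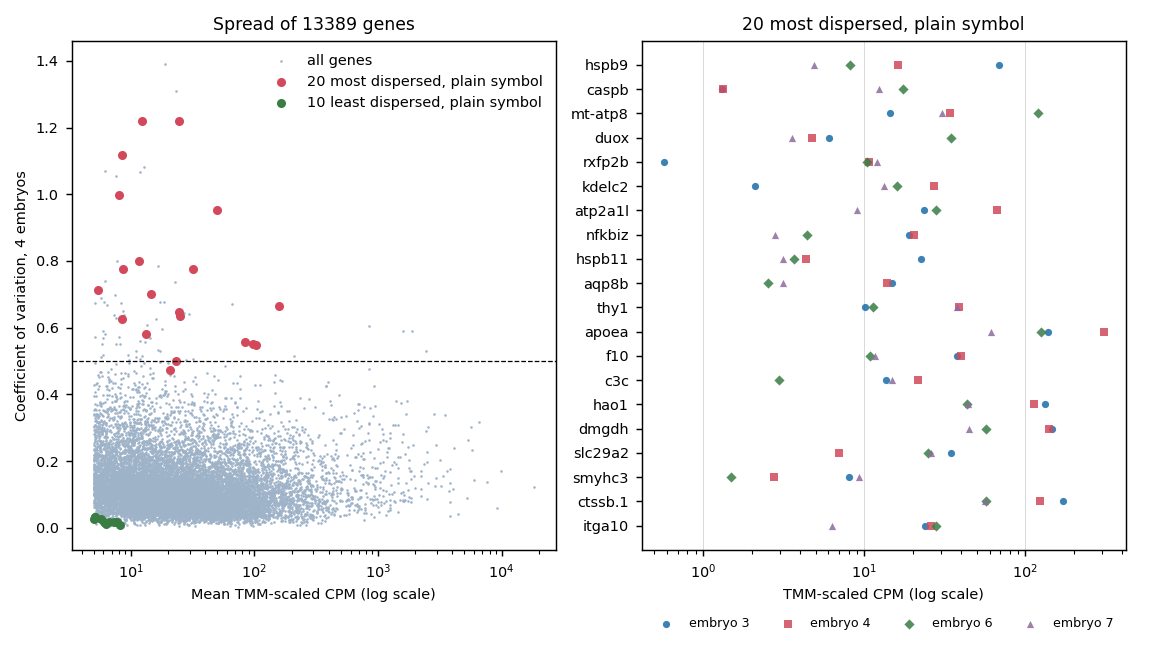
Left, coefficient of variation over the 4 normal embryos (y axis) against mean TMM-scaled CPM (x axis, log scale) for 13389 genes, with the 20 most and 10 least dispersed genes of plain lower-case symbol relative to the trend in colour and a dashed line at 0.5. Right, TMM-scaled CPM (log scale) of these 20 most dispersed genes in each embryo, where embryo 3 is the high point for hspb9 and hspb11 and the low point for rxfp2b and kdelc2.

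The 75 genes with a coefficient of variation of 0.5 or more were not spread evenly over embryos. Embryo 3 was the highest for 29 (38.7%), embryo 4 for 26 (34.7%), embryo 6 for 10 (13.3%) and embryo 7 for 10 (13.3%). Over all 13389 genes these shares were 24.0%, 22.6%, 27.3% and 26.0%. The lowest was embryo 3 for 16 (21.3%), embryo 4 for 9 (12%), embryo 6 for 19 (25.3%) and embryo 7 for 31 (41.3%). Over all genes these shares were 27.0%, 25.1%, 21.3% and 26.7%. The 75 were picked for their spread in these same embryos, and the counts carry no test. In 12 the lowest embryo was more than 5 times below the next, and in 19 the highest was over 2 times the next. Of the 54 that could be placed in the RefSeq gene table, 4 lay on chromosome 1, which carries zic2b and 4.74% of all placed genes, and 0 on chromosome 9, which carries zic2a and 3.98%. The most on 1 chromosome were 7, on chromosome 21, which carries 3.87%. Another of the variable genes stood within 5 places for 8 of the 54 (14.8%), against 4.52% of all placed genes.

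Embryos 3 and 4 resembled each other most closely, and so did embryos 6 and 7. The median absolute log2 difference over 13389 genes was 0.134 between embryos 3 and 4, 0.142 between 6 and 7, 0.170 between 3 and 6, 0.183 between 4 and 7, 0.184 between 4 and 6 and 0.205 between 3 and 7. Genes at least 2-fold apart numbered 90 (0.672%) between embryos 3 and 4, 83 (0.620%) between 6 and 7 and 245 (1.83%) between 3 and 7. Spearman's rho across genes, which are not independent, was 0.968 to 0.983. Dates, clutches and batches are not given in the labels, and whether these pairs shared one cannot be told apart from differences between the embryos.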

How the data were processed

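Each library was prepared from total RNA of 1 embryo with version 2 of the TruSeq RNA kit, per the labels' protocols. The deposited estimated counts are whole numbers, taken to be expected counts rounded by the authors, and the TPM values are also the authors'. The tools in the submitters' processing notes are RSEM 1.2.18, Bowtie 1.1.1 and CASAVA 1.8.2, with the genome build Zv9. The annotation and each tool's part are not given in the sources used here. RSEM divides reads shared by similar genes by a model, which makes near-identical copies uncertain. Strand is not marked by the kit.

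Columns were matched to the 4 normal embryos by the labels. TPM gave levels. Counts, scaled by TMM in edgeR 4.0.16 (R 4.3.3) after filterByExpr (minimum count 10; 20079 genes), gave CPM, dispersions and, from 5 mean CPM, coefficients of variation. Pairs of symbols ending in a and b with a mean of at least 1 TPM in either copy were tested with limma 3.58.1 (treat, log2 ratio beyond 1; Benjamini-Hochberg, threshold 0.05). The steps were tested on simulated data. P-values measure only the spread between these embryos. DESeq2 1.42.0 served as an alternative, beside other scalings, filters, pseudocounts and leaving out each embryo.

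Members, gene lists and pairs were chosen with earlier results of these data known. Of 754 list entries, 636 matched by symbol, 28 by alias and 15 by a synonym in the RefSeq table, and 75 did not match. In all, 14 symbols read as dates and were kept as they stand. Named genes were zic2a and zic2b, the 25 highest by mean TPM, the 4 highest of each list, the tested developmental pairs, the 6 most unequal other pairs each way, the 20 most and 10 least dispersed genes among those with a plain lower-case symbol (which leaves out 3060 of 13389 genes, with clone names, zgc: or si: names, capitals or brackets) and the 6 highest ribosomal, mitochondrial and hox genes. Other list members named (such as her1, sox10 and opn1sw2), and some genes beyond the rule, were chosen after their values were seen. Values of a few genes under this rule are left out.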

Additional observations from a re-analysis of the deposited data

Results flagged for a closer look

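Of 318 sets of 4 values (named genes, list sums, families and pair ratios), 10 (3.14%) had 1 embryo set apart from the other 3 by more than Dixon's critical value for 4 samples. Chance alone flags about 1 in 20. Embryo 3 stood apart in 4 of them. The lens crystallin gene crybb1 had 583 TPM in embryo 3, with 319 to 363 TPM in the others, and the heat-shock gene hspb11 had 22.5 CPM there, with 3.14 to 4.36 CPM in the others. The relaxin receptor gene rxfp2b had 0.570 CPM in embryo 3, with at least 10.4 CPM elsewhere, and the list of myogenic regulators summed to 182 TPM in embryo 3, with 224 to 229 TPM elsewhere. Its gene mef2ca alone had 32.6 TPM in embryo 3, with 51.0 to 61.4 TPM elsewhere, and by TMM-scaled CPM 8 of 13 members were lowest in embryo 7 and 4 in embryo 3. In embryo 6, duox had 34.6 CPM (3.56 to 6.03 CPM in the others), the mitotic cyclin gene ccnb1 323 TPM (289 to 293 TPM) and the list of oocyte and maternal genes 6.00 TPM (8.29 to 8.56 TPM). In embryo 7, the cardiac troponin gene tnnc1a had 14.4 TPM (19.9 to 20.7 TPM) and the myelin gene mbpb 29.6 TPM (24.0 to 24.9 TPM). In embryo 4, the log2 ratio of cryba2a over cryba2b was -0.54 (-0.33 to -0.29 in the others). The 20 named genes picked for their spread gave 3 of the 10. Only the genes picked for their spread were compared by TMM-scaled CPM. Other genes and list sums were compared by TPM, which includes the shift between embryos given above, and were not repeated by CPM. The estimated counts of ccnb1 were 8307, 7785, 10729 and 8981 in embryos 3, 4, 6 and 7, and embryo 6 is the deepest library. Those of mbpb were 1337, 1278, 1553 and 1516, so that embryo 7 was not the highest by counts.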

How the results depend on the processing

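No paired analysis was possible because only 1 group is described and no groups are compared. The count of genes with a coefficient of variation of 0.5 or more was 75, and 239 with genes from 1 mean CPM, 1517 with no filter and 77 to 110 when each embryo was left out. The common BCV was 0.176, and 0.193 with no filter, 0.153 by DESeq2, 0.161 as edgeR's median gene-wise value (added after seeing the data) and 0.171 to 0.181 when each embryo was left out. The share of the 20 most abundant genes was 10.7% without mitochondrially encoded genes. The mean distance between embryos was 0.170, and 0.212 on log2(TPM + 0.1), with embryos 3 and 4, and 6 and 7, still the closest pairs. Of paralog pairs, 1647 passed a test against a ratio of 0 (905 with a higher a copy, 742 with a higher b copy), against 991 beyond 2-fold. By TPM, chosen after seeing the data, 9 epidermis genes were lowest in embryo 6 and 12 in embryo 3, and 0 hatching gland genes were highest in embryo 3. On CPM, which does not take length into account, the log2 ratio of ttna over ttnb was 0.093 (by TPM -1.68), and notch1a over notch1b (0.52), actn3a over actn3b (0.77) and hnrnpa0a over hnrnpa0b (-1.20) were no longer called. actn3a over actn3b also lost its call without embryo 3, 4 or 7. The causes were not tested. The other alternatives left the counts of genes detected, tissue genes detected and pairs called within 1.5 times.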
